A study of Homo sapiens with 17 samples.

Results

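The enhancer e1 was switched on in one squamous cancer line and switched off in another, and the 2 responses are set beside each other here, gene by gene. The account rests on 8 of the 17 RNA-seq libraries of the series, taken by their labels from 4 groups of 2. SKMES1, a lung squamous cancer line chosen for its low SOX2, carried CRISPRa with the control guides sg-NC#1 or sg-NC#2, or with sg-e1#1 or sg-e1#3. KYSE140, an esophageal squamous cancer line with high SOX2, carried CRISPRi with sg-NC#1 or sg-NC#2, or with sg-e1#1 or sg-e1#2. Control cells held the same dead Cas9 system as the e1 cells of their line. Each library is 1 guide in 1 line, so a guide and its library cannot be told apart. The cell line, the direction of the perturbation and the Cas9 fusion changed together and cannot be told apart either. Libraries of a group carried different guides, and the authors describe the 2 experiments of each contrast as biologically independent. The labels do not say how far the cultures were otherwise separate, so p-values measure only the spread between these samples.

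SOX2 encodes a transcription factor of the SOX family that maintains the progenitor cells of squamous epithelia, and the gene is often amplified in squamous cancers. Enhancers are noncoding elements that raise transcription of a gene at a distance. In CRISPRi, dead Cas9 carries transcriptional repressors to the site of the guide, and in CRISPRa, dead Cas9 fused to VP64 is joined by p65 and HSF1, activators that RNA loops on the guide bring in. A gene that follows e1 in both lines would be higher with activation and lower with repression, or the reverse. The difference of the 2 log2 fold changes (activation minus repression) is then large, and their sum is near 0 where the effects are equal and opposite.

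The SKMES1 libraries varied more than those of KYSE140. Totals ran from 9009096 to 15781463 expected counts. Of 12106 well-measured genes in SKMES1, 354 differed over 2-fold between the controls and 138 between the e1 libraries, against 21 and 24 of 11145 in KYSE140. The 2 SKMES1 controls stood apart in squamous keratins, with KRT17 at 2.73 TPM (transcripts scaled to library and length) with sg-NC#1 and 977 TPM with sg-NC#2. The sum of 9 squamous markers was 45.3 and 1162 TPM in those controls and 36.9 and 188 TPM with e1 guides, against at least 7392 TPM in KYSE140. Squamous markers were uneven in SKMES1, with KRT5 at 0.05 to 1.26 TPM, TP63 at 1.87 to 3.79 TPM and DSG3 at 0 to 0.1 TPM in its 4 libraries, EPCAM at 29.4 to 41.6 TPM, and KRT14 at 118 TPM with sg-NC#2 but at most 0.31 TPM in the other libraries. VIM stood there at 1178 to 2268 TPM. Markers of blood cells, endothelium, glandular lung and neuroendocrine cells summed to at most 8.38 TPM in any library. Whether cells or RNA of another culture were mixed into an SKMES1 library was not tested, nor was the part of the keratin difference in the results, and counts are given without each SKMES1 library. In bulk RNA, fewer cells of a type and less RNA per cell cannot be told apart.

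SOX2 (chr3:181429713-181432224, plus strand, GRCh37) moved in opposite directions in the 2 lines. SKMES1 controls held 1.68 and 1.53 TPM, and the activated libraries 224 and 316 TPM. KYSE140 controls held 379 and 365 TPM, and the repressed libraries 119.6 and 128 TPM. Groups did not overlap in either line, and activated SKMES1 held more SOX2 RNA than repressed KYSE140. The log2 fold changes were 7.34 (SE 0.26) and -1.57 (SE 0.05), at adjusted p of 0.0045 and 2.6e-12 (edgeR). Their difference was 8.91 (adjusted p 1.5e-06) and their sum 5.77 (adjusted p 5.3e-05), so the rise was larger than the fall. SOX2-OT, the long noncoding RNA gene that contains SOX2 on the same strand, was nearer to an equal mirror. It read 0.45 and 0.18 TPM in SKMES1 controls and 3.32 and 7.52 TPM with activation, and 84 and 84.1 TPM in KYSE140 controls and 6.51 and 3.36 TPM with repression. Its effects were 4.65 (SE 0.64), at an adjusted p of 0.093, and -4.46 (SE 0.12), with a sum of 0.24 (adjusted p 0.89).

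Promoters are shown for the genes called in opposite directions in both lines whose start lies near a core of the SOX motif. RefSeq promoters (GRCh38.p14, 300 bases, 250 before to 50 after the start) were found by symbol for 11 of these 14 genes, with 18 promoters between them. ACAAAG or ACAATG on either strand occurred in 4 of them (22.2%), near the 24.5% of all 35116 promoters. The windows are chr3:181711675-181711974 (SOX2, plus strand), chr2:132671477-132671776 (LYPD1, minus strand), and chr1:21508734-21509033 and chr1:21551020-21551319 (ALPL, plus strand), with the core in capitals.
SOX2: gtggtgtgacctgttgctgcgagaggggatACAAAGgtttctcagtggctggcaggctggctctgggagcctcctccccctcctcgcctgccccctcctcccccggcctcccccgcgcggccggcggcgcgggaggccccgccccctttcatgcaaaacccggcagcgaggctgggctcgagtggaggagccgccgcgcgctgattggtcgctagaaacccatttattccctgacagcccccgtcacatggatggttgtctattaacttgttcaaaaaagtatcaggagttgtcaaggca
LYPD1: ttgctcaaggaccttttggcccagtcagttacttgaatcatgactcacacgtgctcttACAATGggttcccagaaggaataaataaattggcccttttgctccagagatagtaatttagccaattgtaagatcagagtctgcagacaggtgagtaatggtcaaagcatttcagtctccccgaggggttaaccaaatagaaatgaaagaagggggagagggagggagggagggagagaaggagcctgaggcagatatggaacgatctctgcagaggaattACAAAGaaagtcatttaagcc
ALPL, first start: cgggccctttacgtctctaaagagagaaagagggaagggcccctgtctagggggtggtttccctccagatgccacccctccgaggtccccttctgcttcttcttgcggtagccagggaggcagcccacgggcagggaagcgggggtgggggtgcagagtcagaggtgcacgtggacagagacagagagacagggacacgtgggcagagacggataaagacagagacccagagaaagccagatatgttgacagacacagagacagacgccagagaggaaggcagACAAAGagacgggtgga
ALPL, second start: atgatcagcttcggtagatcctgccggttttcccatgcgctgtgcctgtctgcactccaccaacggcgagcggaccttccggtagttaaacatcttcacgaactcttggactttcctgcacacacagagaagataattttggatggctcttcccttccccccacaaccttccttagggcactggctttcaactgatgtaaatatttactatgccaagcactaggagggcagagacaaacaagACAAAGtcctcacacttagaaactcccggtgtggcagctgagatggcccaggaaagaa
The core lies 220 bases before the start of SOX2, 192 before and 29 after that of LYPD1, and 33 after and 8 before the starts of ALPL. A match of letters is a description and not a bound site.

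Over all genes the mirror was weak. With activation 28 of 14859 genes (0.188%) were called, at an adjusted p under 0.05 with a fold change over 1.5, of which 25 rose (0.168%) and 3 fell (0.0202%). With repression 2764 of 13792 (20%) were called, 1283 risen (9.3%) and 1481 fallen (10.7%). Over the 2443 genes called with repression and tested in both lines, the Spearman correlation of the 2 effects was -0.28. Over all 12840 genes tested in both lines, it was -0.10 and the Pearson correlation -0.20. Genes are not independent replicates, and all of them share the same 8 libraries. Taken from 1 e1 library and 1 control of each line, Spearman correlations ran from -0.18 to 0.015 over 16 pairings. Genes that fell with repression had a median log2 fold change of 0.10 with activation, and 60.6% of them were above 0, against 48.7% of all genes. Genes that rose had a median of -0.09, and 58.7% of them were below 0.

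**Figure D1:**
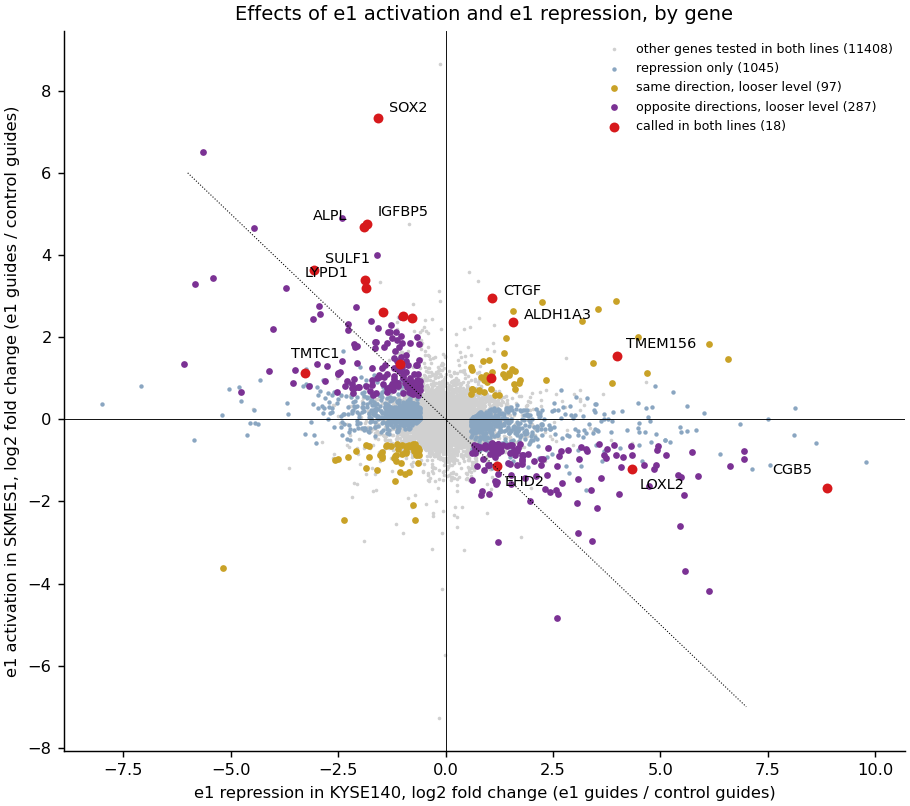
Log2 fold change of each gene tested in both lines with e1 repression in KYSE140 and with e1 activation in SKMES1, each as e1 guides over control guides. Red points are the 18 genes called in both lines, of which 14 lie in the upper left and lower right; purple and yellow points are opposite and same-direction genes at a looser level defined in the text, blue points are called in repression only, and the dotted line marks equal and opposite effects.

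The called lists met at 18 genes, of which 14 moved in opposite directions (0.109% of genes tested in both) and 4 in the same one (0.0312%). SOX2, SULF1, TMEM2, LYPD1, IGFBP5, ALPL, ZNF436, TMTC1, APBA1, BMF and VWA5B2 rose with activation and fell with repression. CGB5, EHD2 and LOXL2 did the reverse. Without 1 SKMES1 control, the spread in SKMES1 comes from the e1 libraries alone, so a call among the 14 in such a fit says little. Without sg-NC#1 and without sg-NC#2, activation effects were 7.42 and 7.25 for SOX2, 3.81 and 3.45 for SULF1, and -1.18 and -1.11 for EHD2. Without sg-e1#1 in SKMES1, 7 were called (SOX2, SULF1, TMEM2, LYPD1, IGFBP5, BMF and VWA5B2), and without sg-e1#3 only SOX2 was. In KYSE140, 13 were called without sg-NC#1, without sg-NC#2 or without sg-e1#1, each time all but VWA5B2, and 14 without sg-e1#2.

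SULF1, a sulfatase that trims heparan sulfate at the cell surface, had large effects of opposite sign. SKMES1 controls gave 3.79 and 1.53 TPM and activated libraries 24.1 and 22.8 TPM. KYSE140 went from 135 and 137 TPM to 21.4 and 16.5 TPM. Activated SKMES1 thus came to the level of repressed KYSE140, with no overlap of groups in either line. Effects were 3.62 (SE 0.17) and -3.07 (SE 0.08), and their sum was 0.57 (95% interval 0.12 to 1.01, adjusted p 0.094, edgeR). LYPD1 (chr2:133400859-133429152), a membrane-anchored protein of the Ly6 family, went from 6.61 and 4.89 TPM to 68.4 and 49.4 TPM with activation. Repression took it from 72.7 and 80.5 TPM to 14.4 and 27.6 TPM. The sum of its effects was 1.34 (adjusted p 0.045).

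ALPL (chr1:21835890-21904903), the tissue-nonspecific alkaline phosphatase, went from 0.55 and 0.28 TPM to 8.26 and 10.3 TPM with activation and from 90.5 and 86.7 TPM to 28 and 23.1 TPM with repression. Activated SKMES1 stayed below repressed KYSE140. IGFBP5 (chr2:217536828-217560272), a secreted binder of insulin-like growth factors, went from 0.35 and 0.48 TPM to 15.4 and 8.96 TPM with activation and from 7.32 and 5.13 TPM to 1.49 and 1.97 TPM with repression. Effects with activation were 4.68 (SE 0.43) for ALPL and 4.77 (SE 0.37) for IGFBP5, and with repression -1.90 (SE 0.08) and -1.83 (SE 0.19). TMEM2 (now CEMIP2), a cell-surface hyaluronidase, went from 18.4 and 22.6 TPM to 107 and 134 TPM with activation and from 42.8 and 45.9 TPM to 34.3 and 32.2 TPM with repression. Its repression effect was -0.78 (SE 0.07) from counts and -0.41 as a log2 ratio of mean TPM, so that call rests on counts.

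TMTC1 (chr12:29653773-29937692), an enzyme of the endoplasmic reticulum that adds mannose to proteins, fell more than it rose. It went from 7.06 and 6.07 TPM to 15.2 and 14.1 TPM with activation and from 26.7 and 27.8 TPM to 3.66 and 3.06 TPM with repression, with a sum of -2.13 (adjusted p 0.00013). ZNF436, a zinc finger protein, went from 8.63 and 9.75 TPM to 22.6 and 25.2 TPM and from 21.9 and 21.5 TPM to 9.73 and 11.3 TPM. Its effects of 1.34 (SE 0.12) and -1.05 (SE 0.09) summed to 0.29 (adjusted p 0.26).

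The other risen genes were low in KYSE140. APBA1, an adaptor protein of neurons, went from 0.69 and 0.95 TPM to 8.37 and 7.06 TPM with activation. In KYSE140 its controls read 6.05 and 2.25 TPM and the repressed libraries 0.35 and 2.2 TPM, so the groups nearly met. Its counts were not whole in 7 of the 8 libraries, which marks shared reads. BMF, a BH3-only protein that promotes apoptosis, went from 6.94 and 6.67 TPM to 34.5 and 42.4 TPM with activation. With repression its counts fell from 86 and 84 to 27 and 44, while its TPM of 2.48 and 2.34 and 1.85 and 2.36 overlapped. VWA5B2 went from 1.35 and 1.09 TPM to 8.28 and 13.1 TPM with activation, and its repression call rests on 13 and 23 counts against 2 and 6.

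EHD2 (chr19:48216679-48246391), an ATPase that stabilises caveolae, was an even mirror of the reverse direction. It went from 56.9 and 61.7 TPM to 29.8 and 27.4 TPM with activation and from 27.6 and 27 TPM to 61.4 and 66.8 TPM with repression. The lines exchanged levels, with effects of -1.15 (SE 0.09) and 1.20 (SE 0.07) and a sum of 0.06 (95% interval -0.18 to 0.30, adjusted p 0.79). LOXL2, which crosslinks collagen, went from 63.9 and 63 TPM to 28.4 and 26 TPM and from 0.36 and 0.29 TPM to 2.66 and 3.2 TPM. CGB5, a beta subunit gene of chorionic gonadotropin, went from 176 and 200.1 TPM to 57.3 and 63.3 TPM with activation. It was at 0 in both KYSE140 controls and at 14.6 and 10.5 TPM with repression, at least 20.4-fold higher than the level of 3 counts in a control library. CGB5 shares reads with near-identical genes, with counts not whole in 6 of the 8 libraries, so its identity within the cluster is uncertain.

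**Figure D2:**
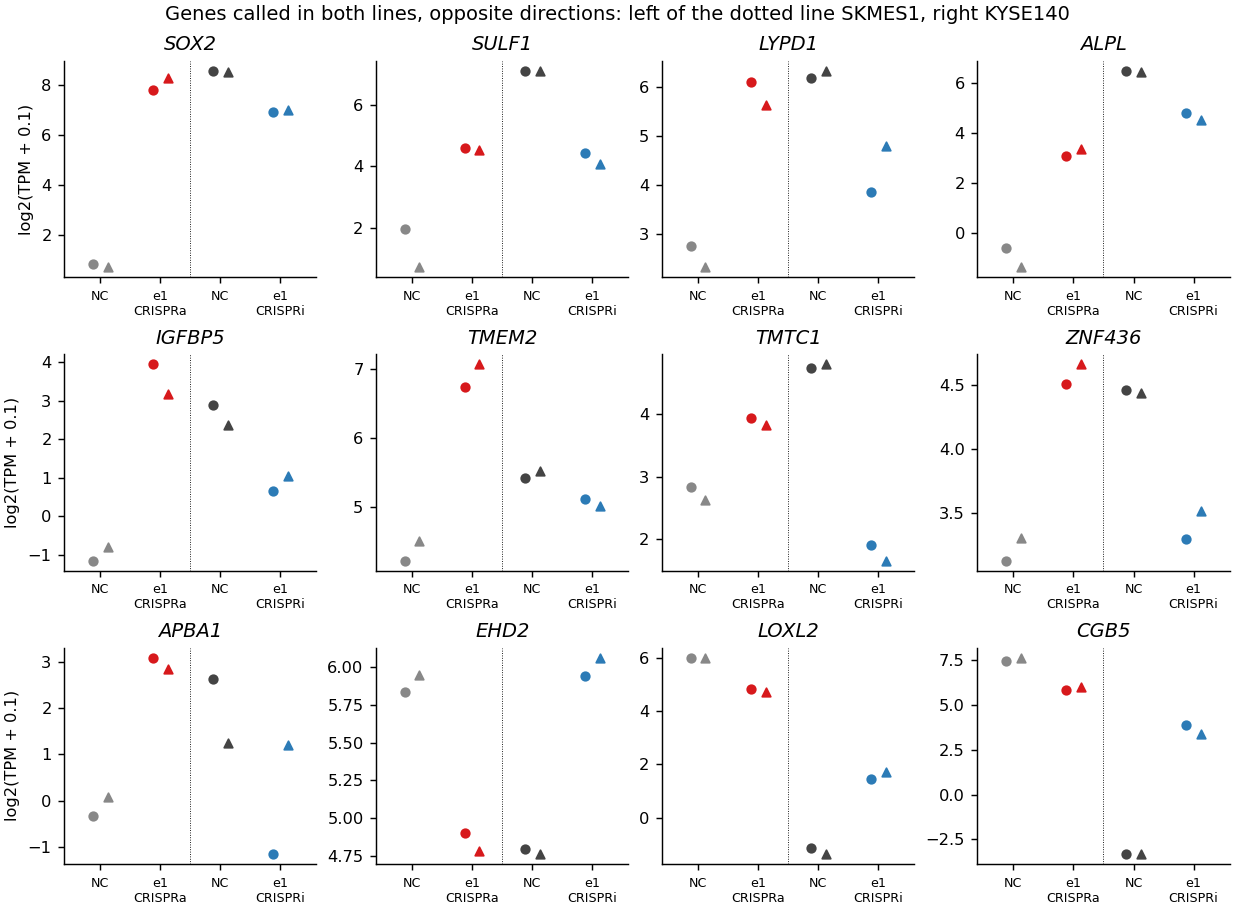
Level of the 12 genes called in both lines in opposite directions that have the smallest p, as log2(TPM + 0.1), in each of the 8 libraries. A circle is the first guide of a group and a triangle the second, with SKMES1 left of each dotted line and KYSE140 right of it. EHD2, LOXL2 and CGB5 are lower with CRISPRa and higher with CRISPRi, and the others the reverse.

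A looser level was used in SKMES1 for genes called in repression, a fold change over 1.5 at an unadjusted p under 0.05. There 287 genes were opposite (2.24%) and 97 went the same way (0.755%). Of 1328 genes that fell with repression, 155 (11.7%) were higher with activation and 48 (3.61%) lower. Of 1115 that rose, 132 (11.8%) were lower and 49 (4.39%) higher. Over all genes tested in both lines 3.33% were higher and 2.87% lower at that level, and over genes not called in repression 2.14% and 1.81%. Opposite and same-direction shares were both above these backgrounds, the opposite ones by more, and the shares were not compared by a test.

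These counts moved with the SKMES1 libraries. Opposite and same-direction genes numbered 461 and 137 without sg-NC#1. Without sg-NC#2, the control with high keratins, they numbered 233 and 150. Without sg-e1#1 there were 250 and 124, and without sg-e1#3 186 and 62. All 287 genes had opposite signs in each of these 4 fits, which the choice of genes fixed. Of the 287, 286 had no overlap of libraries between groups in either line, so leaving out 1 library could not turn their sign.

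**Figure D3:**
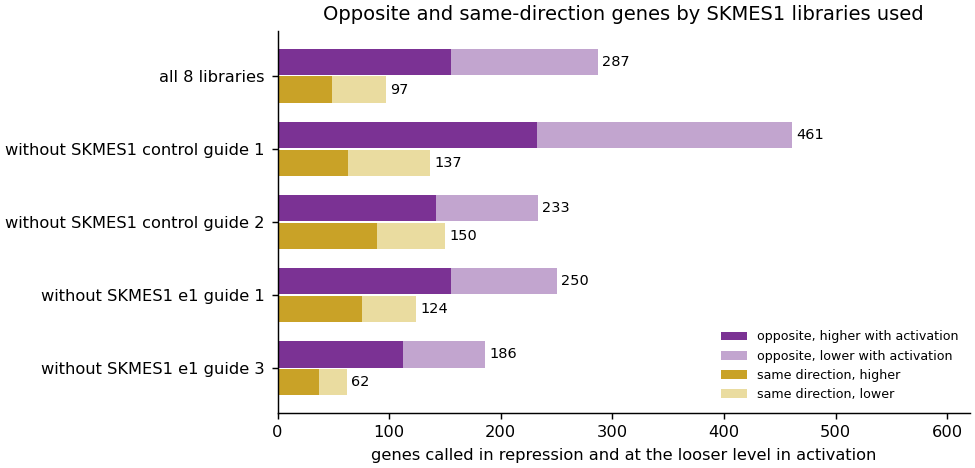
Number of genes called in repression that passed the looser level in activation, in opposite and same directions, with all libraries and without each SKMES1 library. Opposite genes outnumber same-direction genes in all 5 fits, by 287 to 97 with all libraries and by 233 to 150 without sg-NC#2.

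The 2 opposite sets started from different levels. The 155 genes higher with activation had median control levels of 12.1 TPM in KYSE140 and 3.77 TPM in SKMES1, and 118 were higher in KYSE140. The 132 genes lower with activation had medians of 5.43 and 31.8 TPM, and 11 were higher in KYSE140. Median effects were 1.12 and -1.25 in the first set and -0.91 and 1.78 in the second, where 110 genes changed more in KYSE140. The sum was called in 26 and 40 genes of the sets, against 11.3% of all genes (5.8% above 0, 5.51% below). The difference was called in 285 of the 287, against 13.9% of all genes (7.01% above 0, 6.91% below), and the choice of genes fixed that count. The guide sg-e1#3 lay farther from the controls than sg-e1#1 in 92 genes of the first set and 75 of the second.

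MEGF9, a membrane protein with EGF-like repeats, just missed the call with activation (adjusted p 0.054, edgeR). It read 12.3 and 10.1 TPM against 50.2 and 79.3 TPM in SKMES1 and fell from 7.99 and 8.93 TPM to 3.55 and 4.63 TPM with repression. ADAM23, a cell-adhesion protein, read 13.1 and 15 TPM against 31.9 and 30.7 TPM in SKMES1 and fell from 20.5 and 18.7 TPM to 5.88 and 7.26 TPM with repression, and its sum was -0.08 (adjusted p 0.83). In the reverse direction, ITGA3, an integrin that binds laminin, read 652 and 649 TPM against 362 and 395 TPM in SKMES1 and rose from 85.4 and 83.7 TPM to 190.1 and 171 TPM with repression. CLDN4, a tight-junction protein, read 134 and 148 TPM against 91.9 and 78.8 TPM and rose from 59.9 and 61.4 TPM to 156 and 139 TPM. AIM1 (now CRYBG1) had effects of -0.83 and 1.13. SPOCD1, HKDC1 and CGB8 were nearly silent in KYSE140 controls and rose there by 4.13, 3.30 and 5.55 on the log2 scale. CGB8 shares reads with CGB5 and its other copies, with counts not whole in 7 of the 8 libraries, and its rise was 9.08 without the KYSE140 control sg-NC#2.

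In the SOX family list 4 of 8 genes tested in both lines were opposite and 0 went the same way, against 2.24% and 0.755% of all genes. SOX12 fell and SOX15 rose with repression, and neither was among the opposite genes. SOX9, a factor of progenitors and cartilage, read 23.5 and 27.3 TPM against 14.3 and 15.2 TPM with activation and rose from 2.37 and 2.58 TPM to 5.76 and 4.85 TPM with repression. SOX5, SOX13 and SOX21 were higher with activation, with effects of 2.43 (SE 0.48), 0.87 (SE 0.25) and 2.19 (SE 0.70), and fell by 3.08, 1.10 and 2.27 with repression. The list held 2 opposite genes without sg-e1#3. The neighbours FXR1 and ATP11B had effects of 0.14 (SE 0.10) and 0.19 (SE 0.11) with activation and 0.04 (SE 0.04) and 0.08 (SE 0.05) with repression. LINC01206 read 0.57 and 0 TPM in SKMES1 controls and 0.33 and 25.1 TPM with e1 guides, so it was high with 1 guide alone.

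In the mesenchymal list 4 of 16 genes were opposite (VIM, SNAI2, LOXL2 and AXL), against 2.24% of all genes tested in both lines. MMP2 went the same way, against 0.755% of all genes. The medians were -0.25 with activation and 0.66 with repression, against -0.0073 and -0.002 over all genes. VIM, the intermediate filament of mesenchymal cells, read 1639 and 2268 TPM against 1284 and 1178 TPM in SKMES1 and rose from 122 and 114 TPM to 1156 and 1082 TPM with repression. AXL, a receptor tyrosine kinase, read 238 and 313 TPM against 152 and 116 TPM in SKMES1 and rose from 1.89 and 1.06 TPM to 35.1 and 32.7 TPM with repression. Of the 16 genes tested with repression 7 rose and 1, the cadherin CDH2, fell, against 9.3% and 10.7% of all genes. CDH2 went from 80.85 and 79.3 TPM to 41.6 and 45.5 TPM with repression. In SKMES1 it read 70.5 and 49.5 TPM against 73.1 and 77.9 TPM. The summed level of squamous markers was higher beside them in repressed KYSE140. It was 7448 and 7392 TPM in the controls and 13187 and 12997 TPM with e1 guides. The markers did not move together. The keratins KRT5, KRT6A, KRT14 and KRT17 were higher, TP63 and EPCAM were lower, and TRIM29 and CDH1 stayed near control levels. KRT14 rose there from 87.1 and 81.9 TPM to 1132 and 933 TPM. TP63 fell, with a repression effect of -0.62 (SE 0.05). Of 17 squamous regulators tested with repression 4 rose and 7 fell, against 9.3% and 10.7% of all genes. Beside the same shares, 13 of 18 terminal differentiation genes rose, and KRT13 fell. The part of these squamous genes in the mesenchymal values was not tested. Without sg-NC#2 the mesenchymal list held 3 opposite genes. The basal squamous list depended on 1 library. Its median with activation was -0.96 over 19 genes, and -0.05 without sg-NC#2. LAMA3, a laminin chain of epithelial basement membranes, was opposite. It read 22.9 and 28.7 TPM against 16.8 and 9.45 TPM in SKMES1 and rose from 35 and 35.2 TPM to 189 and 181 TPM with repression. KRT16 read 5.34 and 1314 TPM in SKMES1 controls and 1.28 and 2049 TPM with e1 guides, so no direction can be read there.

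In the neural and secretory list 3 of 7 genes tested in both lines were opposite, SCG2 and NRCAM in the direction of SOX2 and L1CAM in the reverse one. SCG2, a granin of secretory vesicles, fell from 137 and 144 TPM to 2.68 and 3.68 TPM with repression and read 0.96 and 0.69 TPM against 8.89 and 122 TPM in SKMES1, where the guides differed widely. NRCAM, a neural cell-adhesion molecule, fell from 12.1 and 11.9 TPM to 1.85 and 2.01 TPM and read 9.31 and 11.1 TPM against 28.6 and 86.3 TPM. L1CAM, also a neural adhesion molecule, had effects of -2.98 (SE 0.79) with activation and 1.23 (SE 0.11) with repression. HEY1, a repressor induced by Notch, was the opposite gene of 14 in its list, and JAG1 and LFNG went the same way in both lines. HEY1 fell from 23.8 and 21.2 TPM to 4.8 and 6.41 TPM with repression and read 4.35 and 1.61 TPM against 12.2 and 15.5 TPM with activation. WNT5A, a ligand of noncanonical Wnt signalling and the one opposite gene of 19 in its list, fell from 14.6 and 12.6 TPM to 4.9 and 5.47 TPM and read 2.27 and 2.07 TPM against 8.71 and 11 TPM. Of 17 EGF and FGF genes 5 were opposite (AREG, FGFR2, FGF2, FGFBP1 and FGF12), and 3 were without sg-NC#2, 3 without sg-e1#1 and 3 without sg-e1#3. Of 16 collagens 3 were opposite (COL12A1, COL15A1 and COL18A1), with 1 without sg-NC#1, 2 without sg-NC#2 and 0 without sg-e1#3. Over all genes tested in both lines 2.24% were opposite.

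The hedgehog, ERK feedback and interferon-stimulated lists changed in KYSE140, with 0, 2 and 0 opposite genes. Over all genes 9.3% rose and 10.7% fell with repression, and 2.24% of those tested in both lines were opposite. Of 12 hedgehog genes tested 6 fell with repression (PTCH1, SMO, GLI3, GAS1, BOC and HHAT), 0 rose and 0 were opposite. Of 18 ERK feedback genes 10 rose and 1 fell. DUSP4, a phosphatase of ERK, rose from 1.25 and 1.41 TPM to 16.8 and 13 TPM and had an activation effect of -0.23 (SE 0.27). SPRY1 and FOSL1 were the opposite genes there, and 0 were opposite without sg-NC#2, 0 without sg-e1#1 and 4 without sg-NC#1. Of 12 interferon-stimulated genes 9 rose and 0 were opposite, though 4 were without sg-NC#1 and 1 without sg-e1#1. Of 20 proliferation genes none was called in either line by edgeR, 2 (AURKB and TYMS) were lower with activation at the looser level, and the medians were -0.38 and -0.04.

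**Figure D4:**
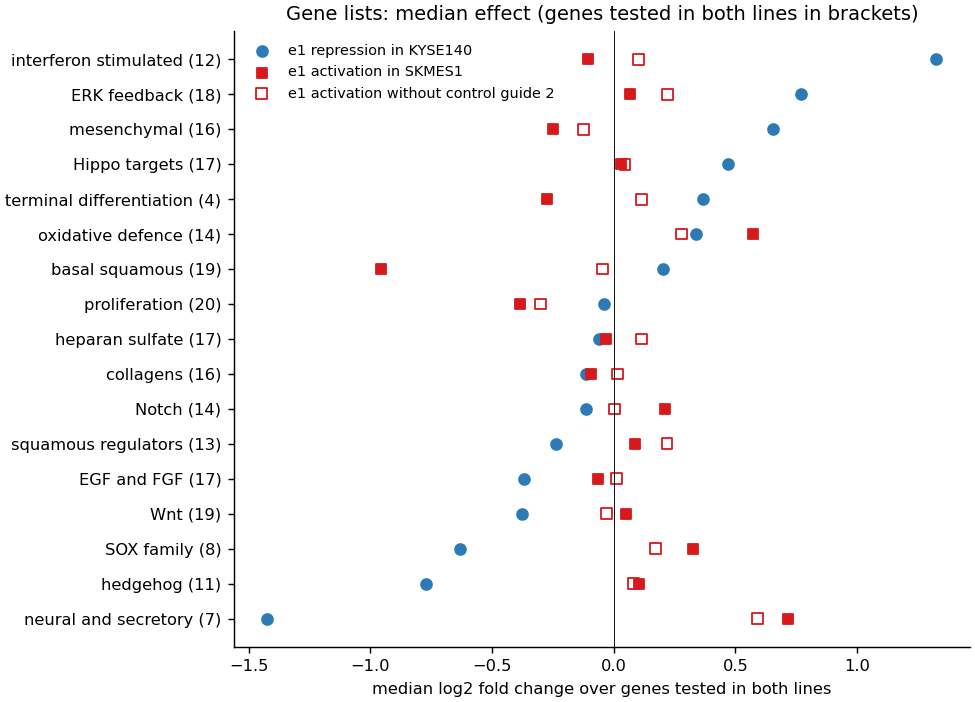
Median log2 fold change over the genes of each list tested in both lines, with e1 repression in KYSE140, with e1 activation in SKMES1, and with activation without the control sg-NC#2. The basal squamous median with activation is -0.96 with all libraries and -0.05 without that control.

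The SOX2 knockout and ARV-771 libraries took no part in choosing these genes. The knockout used CRISPR with SOX2 guides (3 libraries against 2 controls), and ARV-771, a degrader of BET proteins, was given at 0.5 µM for 6 h (2 libraries against 2 of DMSO), both in KYSE140. In the knockout 29.7% of all genes were called, 13.5% fallen and 16.3% risen. Of the genes higher with activation 149 were tested there, and 97 (65.1%) fell and 6 rose, beside 53.9% fallen among all 1286 genes that fell with repression. Of the genes lower with activation 130 were tested, and 110 (84.6%) rose and 1 fell, beside 66.6% of all 1103 that rose. In the repression-only class defined below, 60.0% of 528 fallen genes tested fell in the knockout and 73.6% of 500 risen genes rose. These shares were not compared by a test. With ARV-771 52.9% of all genes were called (31.7% fallen, 21.2% risen). There 48 of 152 genes of the first set fell and 33 rose, and 22 of 97 of the second rose and 36 fell.

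Of the 14 genes called in both lines, 10 moved in the knockout as with repression and 0 the other way, where 29.7% of all genes were called. One of the 10 is SOX2, the targeted gene, whose fall of 1.28 is a check of the labels, which leaves 9 of 13. LYPD1, SULF1, ALPL and TMTC1 fell by 4.40, 3.58, 3.07 and 2.66 on the log2 scale, and EHD2 and LOXL2 rose by 1.88 and 2.71. IGFBP5, APBA1, BMF and ZNF436 were not called, with log2 fold changes of -0.32, -0.33, -0.23 and -0.53.

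**Figure D5:**
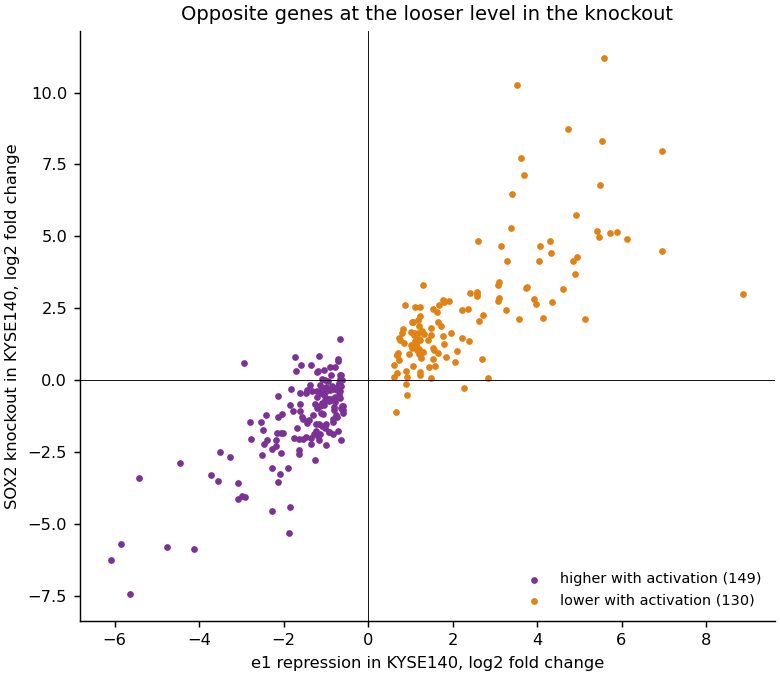
Log2 fold change with e1 repression and in the SOX2 knockout, both in KYSE140, for genes opposite at the looser level, in purple where higher and in orange where lower with activation. Of the 149 genes higher with activation 97 fell in the knockout, and of the 130 lower with activation 110 rose.

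The 4 genes called in the same direction all rose. CTGF (now CCN2), a matrix protein and a target of the Hippo effectors YAP and TEAD, went from 66.8 and 41.1 TPM to 434 and 427 TPM with activation and from 10.3 and 11.6 TPM to 25.5 and 20.8 TPM with repression. It fell by 0.79 in the knockout. Its RefSeq promoter (GRCh38.p14, chr6:131951323-131951622, minus strand) is shown for its 3 copies of GGAATG, the TEAD core, 169, 104 and 95 bases before the start (in capitals). On either strand 14% of all promoters hold that core. Of 17 Hippo target genes tested with repression 8 rose and 0 fell, against 9.3% and 10.7% of all genes. With activation the list had a median of 0.03. At the looser level CTGF was its 1 higher gene and AXL its 1 lower gene there. A part of TEAD in these values was not tested.
CTGF: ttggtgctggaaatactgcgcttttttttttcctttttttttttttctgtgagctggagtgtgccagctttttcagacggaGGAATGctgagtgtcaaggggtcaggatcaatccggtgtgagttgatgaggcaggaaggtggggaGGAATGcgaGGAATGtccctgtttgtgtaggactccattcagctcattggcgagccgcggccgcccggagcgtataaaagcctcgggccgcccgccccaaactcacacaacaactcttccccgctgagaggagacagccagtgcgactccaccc
ALDH1A3, an enzyme of retinoic acid synthesis, went from 101 and 150.3 TPM to 632 and 675 TPM with activation and from 2.11 and 3.62 TPM to 5.24 and 5.04 TPM with repression. TMEM156, a transmembrane protein, went from 28.7 and 23.9 TPM to 84.7 and 76.5 TPM and from 1.2 and 0.29 TPM to 11.1 and 10.2 TPM. ENC1, an actin-binding protein, had effects of 1.00 (SE 0.09) and 1.05 (SE 0.12). Without the SKMES1 controls sg-NC#1 and sg-NC#2 in turn, activation effects were 3.36 and 2.62 for CTGF and 2.16 and 2.60 for ALDH1A3. The calls of all 4 genes were lost without either e1 library. TENM2, LGALS3, MITF and ELOVL6 were lower with activation at the looser level and fell with repression. Of the oxidative-defence genes HMOX1, AKR1B10 and ALDH1A3 went the same way and AKR1C2 and AKR1C3 were opposite, the latter pair with counts not whole in 8 of the 8 libraries.

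Many genes changed in KYSE140 with no detected counterpart. Of 2443 called with repression and tested in both lines, 1045 (42.8%, or 8.14% of all tested in both) had an unadjusted p of at least 0.05 with activation and a called difference. They were 503 risen and 542 fallen genes, and 1014 more could not be placed. A called difference shows only that the effects in the lines differ, which holds for mirrored genes too. It therefore cannot show that a counterpart is absent, and this class can hold mirrors that were not detected. The interval counts that follow are for all 2443 genes and not for this class. For 1937 of the 2443 the 95% interval with activation left out an effect equal and opposite to that of repression. Opposite genes with effects of unequal size, such as SOX2, are among them, so that count does not mark genes without a mirror. For 196 the interval left out 0 and held the equal and opposite effect. For 310 it held both that effect and 0, so a mirror was not detectable at this spread. Another 321 were too low in SKMES1 to be tested.

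PRSS23, a secreted protease, rose from 1.64 and 2.62 TPM to 147 and 125 TPM with repression and read 239 and 229 TPM against 221 and 321 TPM in SKMES1, with an interval of -0.37 to 0.66. CAV1, the main protein of caveolae, rose from 389 and 443 TPM to 1284 and 1281 TPM, with an interval of -0.77 to 0.14 in SKMES1. CCND1, cyclin D1, rose from 156 and 158 TPM to 495 and 501 TPM, with an interval of -0.79 to 0.27. TNC, a matrix protein, rose by 2.00 on the log2 scale, with an interval of -0.95 to 0.14. These 4 intervals left out the mirror of the KYSE140 effect. Among the fallen genes, CHGB, a granin, went from 113 and 109 TPM to 3.24 and 3.3 TPM and read 0.31 to 1.36 TPM in SKMES1. GPNMB, a lysosomal glycoprotein, went from 1385 and 1394 TPM to 208 and 237 TPM, and NELL2, a secreted neural protein, from 114 and 122 TPM to 20.0 and 24.1 TPM. Over fits without 1 library, activation effects ran from 0.11 to 1.78 for CHGB and -0.37 to 1.39 for GPNMB. For NELL2 they ran from -0.21 to -0.014. PTPRZ1, a receptor phosphatase of glia, went from 70.8 and 79.3 TPM to 19 and 19.3 TPM, and its interval of -0.70 to 4.01 in SKMES1 held the mirrored effect. Without sg-NC#2 its effect in SKMES1 was 5.55 (adjusted p 0.018, edgeR) and without sg-NC#1 0.76, so its value turns on which control is kept.

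With activation alone 3 genes were called (0.0234%). TMOD1, which caps actin filaments, rose from 2.67 and 1.85 TPM to 32.2 and 26.6 TPM and read 0.52 to 0.77 TPM in KYSE140. SIPA1L2, a GTPase-activating protein, rose from 2.59 and 2.89 TPM to 13.6 and 16.7 TPM, and RHOU, a small GTPase, from 4.44 and 5.7 TPM to 26.8 and 17.9 TPM. Another 5 (COL14A1, STC1, SEMA5A, PCDH11X and FAM26E) were too low in KYSE140 to be tested, with COL14A1 at most 0.05 TPM there. EDN1 and PGM2L1 could not be placed. EDN1, the vasoconstrictor endothelin-1, rose from 1.56 and 1.26 TPM to 13.9 and 20.9 TPM with activation and read 17.4 and 21.6 TPM against 30.8 and 25.6 TPM in KYSE140.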

How the data were processed

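Poly-A RNA was sequenced from directional libraries. Per the labels, the authors used Bowtie2 and RSEM with hg19, and versions were not given in the sources used here. The deposited expected counts are RSEM estimates per gene, not normalized between libraries. The deposited TPM were scaled by the authors within each library with a length estimated per library, so TPM and count ratios can differ. FPKM was not used. A few items are not reported here.

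Expected counts were rounded, filtered (filterByExpr, minimum count 10, total 15), scaled by TMM and fitted by quasi-likelihood in edgeR 4.0.16 (R 4.3.3). Activation and repression were fitted on 4 libraries each, and their sum and difference on all 8 as 4 groups. Calls needed a Benjamini-Hochberg adjusted p under 0.05 over all genes and a fold change over 1.5. SE is the log2 fold change over the root of F. In these 8 libraries 3 counts equal 0.19 to 0.333 CPM, which covers counting error only. Scripts were tested on simulated data. Named genes were at most 12 called in both lines per direction class, those of smallest p in each class, and list members; BMF and VWA5B2 were named after their values were seen, to complete the 14. Members, classes and lists were chosen with earlier results of these data known. Alternatives were the edgeR exact test, DESeq2 1.42.0, limma 3.58.1 on log2(TPM + 1) or log2(TPM + 0.1), other scalings, filters and thresholds, 1 fit of 8 libraries, a block for replicate number, and fits without each library in turn.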

Additional observations from a re-analysis of the deposited data

Results flagged for a closer look

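The effects in the 2 lines were compared by their sum over the 8 libraries (edgeR), which differed from 0 in 13 of the genes called in both. In the opposite class these sums were ALPL 2.81, BMF 1.51, CGB5 7.33, IGFBP5 2.93, LOXL2 3.14, LYPD1 1.34, SOX2 5.77, TMEM2 1.69, TMTC1 -2.13. A sum of the sign of the activation effect marks a larger change with activation, and otherwise the repression effect was the larger. The value of CGB5 depends on the prior count, since both KYSE140 controls were at 0. In the same-direction class the sums were ALDH1A3 3.94, CTGF 4.04, ENC1 2.06, TMEM156 5.54, which follow from how these genes were chosen.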

How the results depend on the processing

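SOX2 kept its direction and its call in every alternative run, with activation effects of 6.68 to 7.57. The number of calls with activation depended on the tool, and the cause was not tested. Genes called with activation, in opposite directions and in the same direction numbered 510, 163 and 48 by the exact test, 400, 128 and 41 by DESeq2, 432, 143 and 51 in 1 fit of 8 libraries, and 1116, 326 and 127 without the filter. They numbered 9, 4 and 1 by limma on log2(TPM + 1), and 8, 3 and 1 on log2(TPM + 0.1). Activation-only genes numbered 56 by DESeq2, 76 in 1 fit, 228 without the filter and 1 on log2(TPM + 0.1). Scaling by library size gave 7 same-direction genes. Looser opposite and same-direction genes numbered 161 and 60 on log2(TPM + 1), 170 and 63 on log2(TPM + 0.1), 123 and 32 at a fold change over 2, 634 and 428 with no minimum, 158 and 55 at an unadjusted p under 0.01, and 168 same-direction genes came without the filter. Repression-only genes, called differences and called sums numbered 617, 1388 and 1049 on log2(TPM + 1), 534, 1226 and 928 on log2(TPM + 0.1), and 580, 1417 and 1026 at a fold change over 2, and repression-only genes 1618 with no minimum. Calls with repression numbered 1805 at a mean of 50 counts, 1526 at a fold change over 2 and 6103 with no minimum.

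Leaving out each library gave 1 to 764 calls with activation, 2422 to 2881 with repression, 1 to 264 opposite and 0 to 71 same-direction genes, 186 to 461 and 62 to 150 at the looser level, 566 to 1090 repression-only and 0 to 118 activation-only genes, 1162 to 2818 called differences, 726 to 2414 called sums, and a Spearman correlation of -0.16 to -0.012, the last without sg-NC#2. A group left with 1 library is assumed to vary like the other. Of 1789 values of named genes under alternatives 7 reversed, all of effects that were not called. These were NELL2 with activation (0.0849 and 0.0997 by limma), RHOU with repression (0.011 without sg-e1#1), CCND1 and GPNMB with activation (0.014 and -0.37 without sg-NC#2), and PRSS23 and GPNMB (-0.17 and -0.19 without sg-e1#3). Over all leave-outs the values ran from -0.538 to 0.011 for RHOU, -0.486 to 0.0136 for CCND1, -0.367 to 1.39 for GPNMB and -0.174 to 0.412 for PRSS23.

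Replicate numbers did not pair the KYSE140 libraries, with a correlation of 0.016 between same-numbered deviations, and the SKMES1 groups share only number 1. With the replicate block in KYSE140, 2807 genes were called with repression, 14 in opposite directions and 288 at the looser level, with 854 repression-only genes.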
